A study of Homo sapiens with 30 samples.

Results

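Messenger RNA levels of 10 genes of the ETS family of transcription factors (ETV1, ETV4, ETV5, ETV6, ERG, ETS1, ELK4, SPDEF, EHF and ELF3) were followed in LNCaP cells over 4 doses of the androgen R1881. The genes were chosen by symbol through their Ensembl IDs, and they are 10 of the 37843 genes in the count table. LNCaP is an androgen-sensitive human prostate cancer line derived from a lymph node metastasis, and R1881 (methyltrienolone) is a synthetic androgen. All cells were kept for 48 h in medium with charcoal-treated, steroid-depleted serum and then received R1881 at 0.03, 0.06, 0.1 or 10 nM, or vehicle, for 24 h. Each of the 5 groups held 3 libraries of stranded messenger RNA, numbered 2, 3 and 4. The series set low against high doses in connection with a biphasic response of prostate cancer cells to androgen. All libraries came from 1 cancer line, so they show neither normal prostate epithelium nor other tumours, and the labels do not say whether the replicates were separate cultures, so the p-values measure only the spread between these libraries.

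ETS factors share a DNA-binding domain, the ETS domain, that recognises a GGAA core. In prostate cancer, ERG and less often ETV1, ETV4 or ETV5 are switched on by gene fusions that place them under androgen-driven promoters such as that of TMPRSS2. Other members are part of normal epithelium, among them SPDEF, EHF and ELF3. ELK4 is a ternary complex factor, which binds DNA together with the serum response factor SRF and is activated by ERK kinases, and ETV6 is a repressor.

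Counts per library summed to 30666460 to 61199483. Levels are given as depth-scaled counts (CPM, counts over effective library sizes), and changes as log2 of the ratio of doses, with the standard error (SE) of the fit. A gene was called changed at an adjusted p under 0.05 in edgeR's quasi-likelihood test with Benjamini-Hochberg adjustment over all 18403 genes tested, fitted to all 15 libraries. The luminal keratins were well expressed, with KRT8 at 2932 ± 251.8 CPM at 10 nM and 478.6 ± 14.3 CPM in vehicle (SD, n = 3 each). Of 5 endothelial and 5 leukocyte markers, 4 and 3 had under 20 counts over all 15 libraries. Genes encoded in the mitochondrion took 9.31% to 10.7% of counts in the 5 libraries numbered 3, 1 in each group, against 6.14% to 7.69% in the other 10.

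Promoter sequences from RefSeq (GRCh38.p14) could be matched for 7 of the 10 genes, and not for ETV4, ETV5 and ETS1. Those of SPDEF, ELK4 and ETV1 are shown because these genes have the largest rises among the 10 at 10 nM against vehicle. Each is the 250 bases before an annotated start, read on the minus strand from 5′ to 3′, at chr6:34556330-34556579 for SPDEF, chr1:205632012-205632261 for ELK4 and chr7:13991426-13991675 for the outermost ETV1 start. Capitals mark the ETS core GGAA, written TTCC on the other strand, and would also mark the androgen response half-site AGAACA or TGTTCT.
SPDEF: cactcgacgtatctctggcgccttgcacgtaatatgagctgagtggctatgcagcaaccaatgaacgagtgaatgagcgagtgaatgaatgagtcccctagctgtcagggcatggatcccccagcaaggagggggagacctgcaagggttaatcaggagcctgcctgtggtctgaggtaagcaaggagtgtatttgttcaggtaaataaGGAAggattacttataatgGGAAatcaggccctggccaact
ELK4: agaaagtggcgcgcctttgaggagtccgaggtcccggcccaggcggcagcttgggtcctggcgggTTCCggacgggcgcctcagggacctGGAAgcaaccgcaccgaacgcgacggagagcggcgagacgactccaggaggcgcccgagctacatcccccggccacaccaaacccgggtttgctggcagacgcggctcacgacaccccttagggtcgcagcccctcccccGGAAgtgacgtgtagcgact
ETV1: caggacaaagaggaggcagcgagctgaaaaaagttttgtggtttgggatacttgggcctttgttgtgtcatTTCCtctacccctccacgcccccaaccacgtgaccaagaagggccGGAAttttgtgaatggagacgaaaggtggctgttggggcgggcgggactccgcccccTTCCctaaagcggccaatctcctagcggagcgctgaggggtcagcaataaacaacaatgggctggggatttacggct
The SPDEF window holds 2 GGAA cores and the ELK4 and ETV1 windows 3 each, and the half-site letters are in none of the 3 windows. In the ELK4 window 1 of the cores lies in the longer string CGGAAG. Both strands were searched in all 35116 promoter windows of this length: 92.7% hold GGAA, with a median of 3 matches, 16.5% hold CGGAAG, which contains GGAA, and 12.4% hold the half-site. Of 6 annotated ETV1 starts, 2 have a half-site in their overlapping windows, 17 and 13 bases upstream of the start. These matches are descriptions of letters and not of binding.

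Of the 10 genes, 8 passed the filter on low counts and were tested. ERG and ETV4 did not pass. At 10 nM against vehicle SPDEF, ELK4, ETV1 and EHF rose and ETV6, ELF3 and ETS1 fell, while ETV5 was not called. These are 7 of 8, where 57.6% of all tested genes were called, 29.3% higher and 28.3% lower. The median absolute log2 change of the 8 genes was 0.88, against 0.359 over all tested genes. In cell populations fewer cells with a transcript and less transcript per cell cannot be told apart.

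Fewer or equally many of the 8 genes were called at the lower doses. At 0.1 nM against vehicle 7 of 8 were called (42.1% of all tested genes), 4 higher (21.5%) and 3 lower (20.6%), with ETV5 in place of ETS1 among the lower. At 0.06 nM the count was 7 of 8 as well (31.2%), again SPDEF, ELK4, ETV1 and EHF higher (16.9%) and ETV5, ETV6 and ELF3 lower (14.3%). At 0.03 nM 4 of 8 were called (8.63%), SPDEF and EHF higher (5.47%) and ETV6 and ELF3 lower (3.16%). The 0.03 nM count is the least settled: it ran from 1 to 5 when single libraries were left out, and SPDEF was the gene called each time. Over all genes the count in these fits ran from 979 to 1650, against 1588 with all libraries. All these comparisons share the 3 vehicle libraries. At 10 nM against 0.06 nM 6 of 8 were called (45.3%), SPDEF, ELK4 and ETV1 higher (22.7%) and ETV6, ELF3 and ETS1 lower (22.6%).

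**Figure D1:**
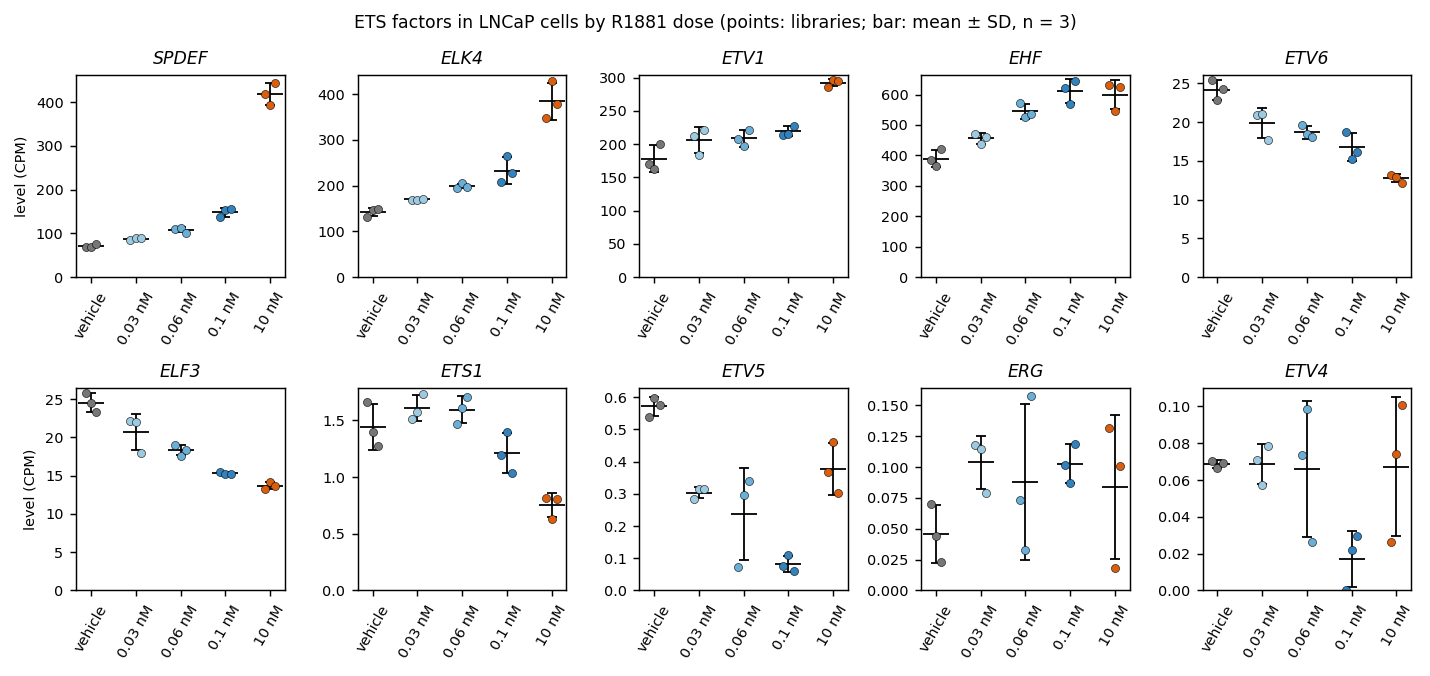
Level of each of the 10 genes (CPM, vertical axes from 0, own scale for each gene) by R1881 dose, with doses spaced as categories; points are libraries and bars the mean ± SD, n = 3. SPDEF, at 419 CPM at 10 nM and 71.0 CPM in vehicle, climbs at each dose, EHF levels off, and ERG and ETV4 rest on at most 6 counts a library.

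SPDEF, the prostate-derived ETS factor of secretory epithelium, showed the largest rise of the 10 at 10 nM, and each dose differed from the next. It lies on chromosome 6 from 34537802 to 34556333 on the minus strand (ENSG00000124664.11, GRCh38, GENCODE 29). SPDEF stood at 69.8, 68.3 and 74.9 CPM in vehicle, 83.9, 89.2 and 89.4 CPM at 0.03 nM, 111, 111.5 and 102 CPM at 0.06 nM, 136.5, 153 and 156 CPM at 0.1 nM, and 419, 393 and 444 CPM at 10 nM. No library of a dose overlapped one of the next dose. Against vehicle the log2 change was 0.30 ± 0.063 at 0.03 nM, 0.61 ± 0.063 at 0.06 nM, 1.06 ± 0.063 at 0.1 nM and 2.56 ± 0.065 at 10 nM, with edgeR adjusted p of 0.00515, 1.07e-06, 5.82e-10 and 1.51e-15. The rise at 10 nM was 5.89-fold over vehicle. The single step between 10 and 0.1 nM was 1.50 ± 0.063 on the log2 scale (edgeR adjusted p = 7.29e-12), larger than all steps below it together.

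EHF, an epithelium-specific ETS factor, rose over the low doses and was no higher at 10 nM than at 0.1 nM. Its gene is on chromosome 11 from 34621093 to 34661057 on the plus strand (ENSG00000135373.13). EHF had 384, 364 and 419.5 CPM in vehicle, 471, 436 and 460 CPM at 0.03 nM, 573.5, 526.5 and 535 CPM at 0.06 nM, 622, 569 and 645 CPM at 0.1 nM and 633, 544.5 and 623 CPM at 10 nM. The vehicle libraries lay below all others, and those at 10 nM were interleaved with those at 0.06 and 0.1 nM. Against vehicle EHF rose by 0.23 ± 0.069 on the log2 scale at 0.03 nM and by 0.49 ± 0.069 at 0.06 nM (edgeR adjusted p = 0.0481 and 3.45e-05), the first of these calls being lost in 10 of 15 fits that left out 1 library. It rose by 0.65 ± 0.069 at 0.1 nM and by 0.62 ± 0.069 at 10 nM (edgeR adjusted p = 6.57e-07 and 4.42e-07). Between 10 and 0.1 nM the change was -0.03 ± 0.069 (edgeR adjusted p = 0.778). Between 10 and 0.06 nM it was 0.14 ± 0.069 (edgeR adjusted p = 0.112), and -0.04 when scaled by library totals alone. EHF was called higher there with a replicate block (0.14, edgeR adjusted p = 0.015). So it was without the 5 libraries numbered 3 (0.17, edgeR adjusted p = 0.0233) and without 10 nM replicate 3 (0.19, 0.0352).

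ELF3, the third of these epithelial factors among the 10 genes and a regulator of epithelial differentiation, went the other way. It lies on chromosome 1 from 202007945 to 202017188 on the plus strand (ENSG00000163435.16). ELF3 had 25.9, 24.5 and 23.4 CPM in vehicle, 22.1, 22.02 and 18.03 CPM at 0.03 nM, 19.0, 17.6 and 18.4 CPM at 0.06 nM, 15.5, 15.2 and 15.2 CPM at 0.1 nM, and 13.3, 14.2 and 13.7 CPM at 10 nM. All libraries with R1881 lay below all vehicle libraries. It fell by 0.42 ± 0.075 on the log2 scale at 0.06 nM, by 0.68 ± 0.075 at 0.1 nM and by 0.84 ± 0.076 at 10 nM, all against vehicle (edgeR adjusted p = 0.000317, 1.12e-06 and 3.02e-08). The step between 10 and 0.1 nM, -0.16 ± 0.077, was not called (edgeR adjusted p = 0.117). The antisense transcript ELF3-AS1, which shares 664 exonic bases with ELF3, fell by 0.68 ± 0.061 at 10 nM against vehicle (edgeR adjusted p = 2.96e-08). How strand was counted is not given in the sources used here, so reads in the shared bases could belong to either gene.

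ELK4 rose at each dose from 0.06 nM. Its gene is on chromosome 1 from 205597556 to 205631962 on the minus strand (ENSG00000158711.14). ELK4 had 132, 146 and 148 CPM in vehicle, 168, 170 and 172 CPM at 0.03 nM, 195, 205 and 198 CPM at 0.06 nM, 207, 264 and 227 CPM at 0.1 nM and 348, 428 and 378 CPM at 10 nM. The libraries of neighbouring doses did not overlap at any step, and those at 0.1 and 10 nM were the most spread, with the library numbered 3 the highest in both. Against vehicle the log2 change was 0.26 ± 0.081 at 0.03 nM (edgeR adjusted p = 0.057, not called), 0.49 ± 0.081 at 0.06 nM (0.00016), 0.71 ± 0.081 at 0.1 nM (1.5e-06) and 1.44 ± 0.082 at 10 nM (5.56e-11), a 2.71-fold rise. Without the 5 libraries numbered 3 the change at 10 nM was 1.37. The step between 10 and 0.1 nM was 0.72 ± 0.08 (edgeR adjusted p = 1.09e-06), and ELK4 was 0.45 ± 0.081 higher at 0.1 than at 0.03 nM (0.000543). The steps between neighbouring low doses were not called in this fit, but their calls depended on the setting. With a replicate block in edgeR the step between 0.03 nM and vehicle (adjusted p = 0.00127), that between 0.06 and 0.03 nM (0.00458) and that between 0.1 and 0.06 nM (0.0169) were all called, as they were with no filter on low counts (0.0015, 0.00978 and 0.0267). The step between 0.06 and 0.03 nM was also called in DESeq2 (adjusted p = 0.0446), with only the libraries compared (0.0277) and without the 5 libraries numbered 3 (0.0376).

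The neighbourhood of ELK4 holds genes that moved with it or against it. SLC45A3, a prostate-enriched membrane transporter, ends 25888 bases upstream of ELK4 on the same strand, and readthrough transcripts that join SLC45A3 to ELK4 are known in prostate cancer. SLC45A3 averaged 1090 ± 52.6 CPM at 10 nM and 69.4 ± 4.34 CPM in vehicle (SD, n = 3 each), a log2 rise of 3.97 ± 0.086 (edgeR adjusted p = 1.97e-16). At 0.03, 0.06 and 0.1 nM SLC45A3 was above vehicle by 1.66, 2.30 and 2.70, so its log2 rise exceeded that of ELK4 at every dose. Counts per gene do not separate ELK4 transcripts that start at its own promoter from readthrough transcripts. MFSD4A, a transporter gene on the opposite strand that shares 422 exonic bases with ELK4, averaged 1.25 ± 0.166 CPM at 10 nM and 5.64 ± 0.846 CPM in vehicle, and fell by 2.17 ± 0.16 on the log2 scale (edgeR adjusted p = 2.93e-09). Here too, reads in the shared bases could belong to either gene.

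The PEA3 group, ETV1, ETV4 and ETV5, are closely related activators whose protein levels are set by ERK signalling and by the ubiquitin ligase COP1. They were far apart in level: at 10 nM ETV1 had 30.4 CPM per kilobase of exon, ETV5 0.0652 and ETV4 0.0186. ETV1 lies on chromosome 7 from 13891228 to 13991425 on the minus strand (ENSG00000006468.14). It had 170, 163 and 201 CPM in vehicle, 213, 184 and 222 CPM at 0.03 nM, 208, 197 and 221.5 CPM at 0.06 nM, 214.5, 216 and 228 CPM at 0.1 nM and 286, 296 and 294 CPM at 10 nM. The 10 nM libraries lay above all others, and the vehicle and 0.03 nM libraries overlapped.

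Against vehicle ETV1 differed by 0.21 ± 0.076 on the log2 scale at 0.03 nM (edgeR adjusted p = 0.0947, not called) and rose by 0.23 ± 0.076 at 0.06 nM (0.0272), by 0.30 ± 0.076 at 0.1 nM (0.00366) and by 0.71 ± 0.076 at 10 nM (2.51e-07). No step between neighbouring low doses was called, and the step between 10 and 0.1 nM was 0.41 ± 0.075 (edgeR adjusted p = 0.000242). With library totals alone the 0.06 nM difference was not called (edgeR adjusted p = 0.11). In LNCaP cells the ETV1 locus is known to be inserted into the MIPOL1 gene, near FOXA1, on chromosome 14. MIPOL1 had 53.9 ± 4.97 CPM at 10 nM and 56.9 ± 1.97 CPM in vehicle, a log2 change of -0.08 ± 0.068 (edgeR adjusted p = 0.358). MIPOL1 was called lower without the 5 libraries numbered 3 (-0.16, adjusted p = 0.0291), without 10 nM replicate 3 (-0.17, 0.0357) and with library totals alone (-0.29, 0.0026). FOXA1, a pioneer transcription factor of prostate epithelium, had 544.9 ± 13.7 CPM at 10 nM and 516 ± 23.9 CPM in vehicle, a log2 change of 0.08 ± 0.049 (edgeR adjusted p = 0.182), and -0.13 with library totals alone. At 0.06 and 0.1 nM FOXA1 fell against vehicle, with a log2 change of -0.23 at each dose (edgeR adjusted p = 0.00159 and 0.00121). DGKB, 153623 bases from ETV1 in the reference genome, rose by 0.43 ± 0.099 at 10 nM (edgeR adjusted p = 0.00119), a call lost with library totals alone (0.22, 0.0707).

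**Figure D2:**
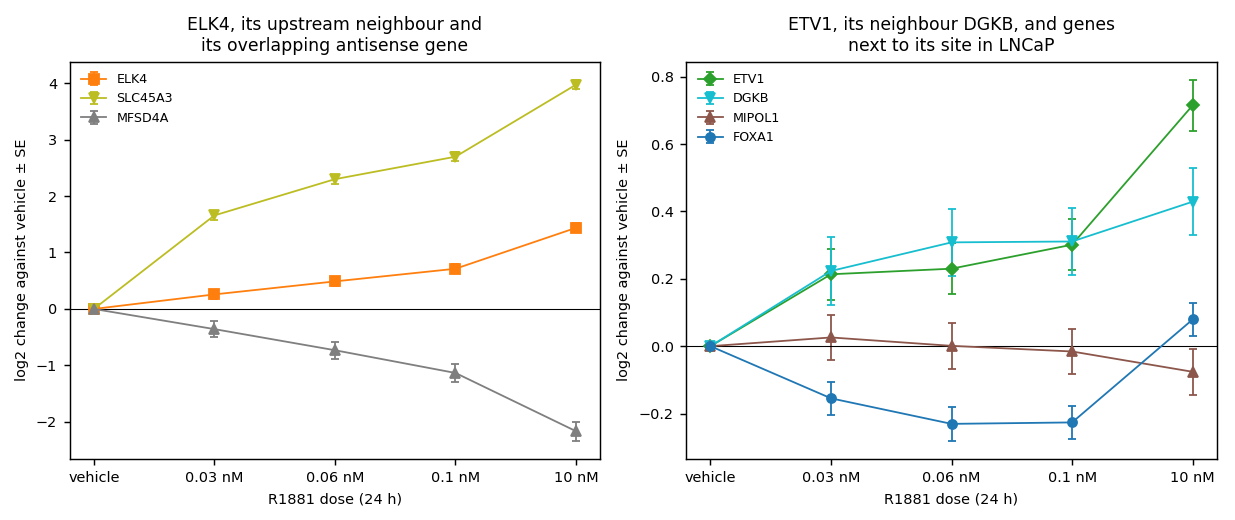
Log2 change against vehicle (mean of 3 libraries a dose, bars are SE of the fit) by R1881 dose, spaced as categories, for ELK4 with SLC45A3 and MFSD4A (left) and for ETV1 with DGKB, MIPOL1 and FOXA1 (right); the vertical scales differ. At 10 nM SLC45A3 is at 3.97, ELK4 at 1.44 and MFSD4A at -2.17, while ETV1 is at 0.71 and MIPOL1 at -0.08.

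ETV5 was low everywhere, with its lowest mean at 0.1 nM. Its gene is on chromosome 3 from 186046308 to 186110318 on the minus strand (ENSG00000244405.8). It shares 164 exonic bases with DGKG on the same strand, which had 12 counts over all 15 libraries. Raw counts of ETV5 were 23, 27 and 25 in vehicle, 12, 11 and 16 at 0.03 nM, 3, 9 and 13 at 0.06 nM, 3, 5 and 2 at 0.1 nM and 14, 25 and 12 at 10 nM. Scaled for depth these averaged 0.572 CPM in vehicle, 0.304, 0.237 and 0.0815 CPM at the low doses and 0.378 CPM at 10 nM, so the 10 nM libraries lay between those of 0.1 nM and those of vehicle without overlapping either. ETV5 fell at 0.06 nM by 1.30 ± 0.36 on the log2 scale (edgeR adjusted p = 0.00982) and was at -2.73 ± 0.43 at 0.1 nM (5.32e-05), both against vehicle. At 0.03 nM the difference from vehicle, -0.90 ± 0.33, was not called (edgeR adjusted p = 0.106). The step between 0.1 and 0.06 nM, -1.43 ± 0.51, was not called either (edgeR adjusted p = 0.274), and those libraries overlapped. Without 0.06 nM replicate 2 that step was called (-1.90, edgeR adjusted p = 0.0428). ETV5 was 2.16 ± 0.45 higher at 10 nM than at 0.1 nM (edgeR adjusted p = 0.00089), and at 10 nM the difference from vehicle, -0.57 ± 0.32, was not called (edgeR adjusted p = 0.133). With library totals alone ETV5 was called lower at 10 nM than in vehicle (-0.78, edgeR adjusted p = 0.0398). The fall at 0.06 nM rests in part on replicate 2 of that dose, without which it was -0.83 (edgeR adjusted p = 0.0609).

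ETV4 and ERG were barely detected. ETV4, on chromosome 17 from 43527844 to 43579620 on the minus strand (ENSG00000175832.13), had 9 counts over the 3 libraries in vehicle, 9, 7 and 2 at 0.03, 0.06 and 0.1 nM and 9 at 10 nM, with 0 to 4 in a library. Its pooled level was 0.0684 CPM at 10 nM, with an exact 95% Poisson interval of 0.0313 to 0.13, and 0.0687 CPM in vehicle, with an interval of 0.0314 to 0.13. ETV4 shares 68 exonic bases with DHX8 on the opposite strand, which averaged 76.5 CPM at 10 nM and 75.1 CPM in vehicle. How strand was counted is not given, so the few ETV4 counts could include reads of DHX8. ERG, on chromosome 21 from 38380027 to 38661780 on the minus strand (ENSG00000157554.19), had 6 counts in vehicle, 13, 10 and 12 at the low doses and 10 at 10 nM, with 1 to 6 in a library. Its pooled level was 0.076 CPM (0.0364 to 0.14) at 10 nM and 0.0458 CPM (0.0168 to 0.0996) in vehicle. The intervals of 10 nM and vehicle overlap in both genes, but they cover counting error only and their overlap is not a test. The libraries at 0.1 nM lay below those of vehicle for ETV4. For ERG those at 0.03 and 0.1 nM lay above those of vehicle. These differences rest on few counts, and neither gene was called in edgeR without the filter on low counts. TMPRSS2, the usual fusion partner of ERG in prostate cancer, averaged 1335 ± 144 CPM at 10 nM and 66.4 ± 13.4 CPM in vehicle (SD, n = 3 each), a 20.1-fold rise (log2 4.33 ± 0.23, edgeR adjusted p = 2.25e-11). LNCaP cells are known to lack a TMPRSS2-ERG fusion.

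ETV6, a repressor that also forms leukaemia fusions, fell at every dose against vehicle. It lies on chromosome 12 from 11649854 to 11895402 on the plus strand (ENSG00000139083.11). ETV6 had 25.5, 22.9 and 24.2 CPM in vehicle, 20.96, 21.1 and 17.7 CPM at 0.03 nM, 19.6, 18.4 and 18.1 CPM at 0.06 nM, 18.8, 15.3 and 16.2 CPM at 0.1 nM and 13.2, 13.0 and 12.2 CPM at 10 nM. The 10 nM libraries lay below all others and the vehicle libraries above all others, while those of the low doses overlapped. Against vehicle ETV6 fell by 0.28 ± 0.083 on the log2 scale at 0.03 nM (edgeR adjusted p = 0.0397), by 0.37 ± 0.083 at 0.06 nM, by 0.53 ± 0.084 at 0.1 nM and by 0.92 ± 0.085 at 10 nM (0.00227, 5.69e-05 and 3.89e-08, in order of dose). The call at 0.03 nM was lost in 6 of 15 fits that left out 1 library. The steps between neighbouring low doses were not called, but the change between 0.1 and 0.03 nM was, at -0.25 ± 0.084 (edgeR adjusted p = 0.0422). The step between 10 and 0.1 nM was -0.39 ± 0.086 (edgeR adjusted p = 0.0013).

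ETS1, the founding member of the family, was called lower at 10 nM and was not called at the lower doses. It lies on chromosome 11 from 128458761 to 128587558 on the minus strand (ENSG00000134954.14). ETS1 had 1.66, 1.40 and 1.27 CPM in vehicle, 1.51, 1.57 and 1.73 CPM at 0.03 nM, 1.47, 1.61 and 1.70 CPM at 0.06 nM, 1.20, 1.39 and 1.04 CPM at 0.1 nM and 0.817, 0.629 and 0.807 CPM at 10 nM. The 10 nM libraries lay below all others, and those of vehicle overlapped each of the low doses. ETS1 fell by 0.96 ± 0.18 on the log2 scale at 10 nM against vehicle (edgeR adjusted p = 0.000222) and by 1.10 ± 0.18 against 0.06 nM (9.01e-05). At 0.1 nM the difference from vehicle was -0.24 ± 0.17 (edgeR adjusted p = 0.282). Against 0.1 nM the fall at 10 nM was 0.71 ± 0.19 (edgeR adjusted p = 0.00551), and without the 5 libraries numbered 3 it was -0.49 (adjusted p = 0.152).

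ETS1 is also a gene of endothelium and leukocytes, and in these LNCaP libraries some genes used as markers of other cell types moved in the same direction. The summed level of 5 endothelial markers was 5.18 to 7.91 CPM at 10 nM and 16.8 to 20.1 CPM in vehicle, nearly all of it from VWF, the other 4 having under 20 counts in all. The sum of the 4 fibroblast markers in the table was 16.2 to 19.9 CPM at 10 nM and 27 to 38.4 CPM in vehicle, mostly COL1A1, and the sum of 5 leukocyte markers was 0.166 to 0.264 CPM at 10 nM and 0.111 to 0.185 CPM in vehicle. All libraries came from the LNCaP line, so these sums are levels of marker genes in that line. A link between them and the fall of ETS1 was not tested.

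**Figure D3:**
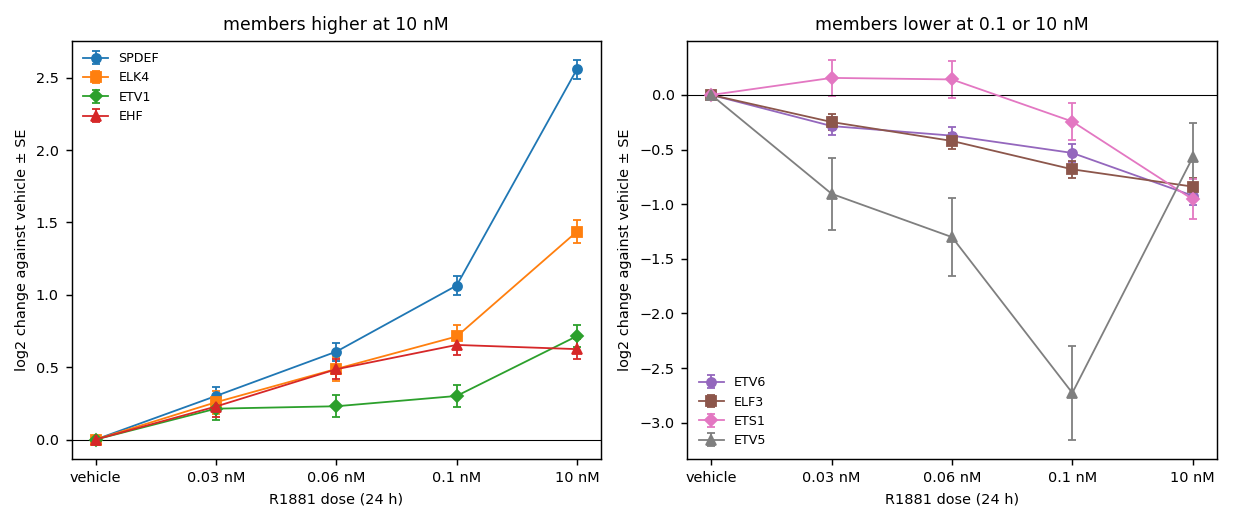
Log2 change against vehicle (mean of 3 libraries a dose, bars are SE of the fit) by R1881 dose, spaced as categories, for the 4 genes that rose at 10 nM (left) and the 4 that fell at 0.1 or 10 nM (right); the vertical scales differ. SPDEF reaches 2.56 at 10 nM, EHF stays at 0.62 after 0.65 at 0.1 nM, and ETV5 is at -2.73 at 0.1 nM and -0.57 at 10 nM.

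The genes called at 10 nM differed in how much of their change was present at 0.1 nM. On the log2 scale EHF had 105% of its 10 nM change at 0.1 nM, ELF3 81.1%, ETV6 57.6%, ELK4 49.6%, ETV1 42.1%, SPDEF 41.6% and ETS1 25.5%. Over all 10608 genes called at 10 nM the median was 51%, with quartiles at 25.8% and 78.7%, so ELF3 and EHF lay above the upper quartile and ETS1 just below the lower one. Step by step, 2 of 8 genes were called between 0.06 and 0.03 nM (6.26% of all tested genes), both higher (4.2%), SPDEF and EHF. The call of EHF was lost in 5 of 15 fits that left out 1 library and with library totals alone (edgeR adjusted p = 0.124). Between 0.1 and 0.06 nM SPDEF was called (1.36%), and it was higher (1.07%). With the replicate block ELK4 and EHF were called higher there as well, and ELF3 lower (edgeR adjusted p = 0.0169, 0.0349 and 0.0246). The 1.36% is from the fit without the block, and the share of all genes with it is not given here. At 0.03 nM against vehicle the block raised the count over all genes from 1588 to 3195. Between 10 and 0.1 nM 6 of 8 were called (40.1%), SPDEF, ELK4, ETV1 and ETV5 higher (20.6%) and ETV6 and ETS1 lower (19.5%).

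Per kilobase of exon, the family had a different leading member at 10 nM. Of 28 human ETS genes 27 were in the table, and their levels per kilobase of exon summed to 493 ± 19.1 CPM per kilobase at 10 nM and 224 ± 9.95 in vehicle (SD, n = 3 each). SPDEF made up 44.4% ± 1.08 of this sum at 10 nM and 16.5% ± 0.0806 in vehicle. EHF made up 27.7% ± 1.37 at 10 nM and 39.5% ± 1.1 in vehicle, although its own level was higher at 10 nM. EHF was the most abundant ETS transcript per kilobase in vehicle and at the 3 low doses, and SPDEF at 10 nM. Without division by exon length EHF had more counts than SPDEF at 10 nM too, 600.1 against 419 CPM, and SPDEF made up 20.4% ± 0.974 of the family's counts at 10 nM and 6.44% ± 0.0155 in vehicle. For the family sum per kilobase and the shares of SPDEF and EHF in it, the two-sided exact permutation test gave p = 0.1 each, the smallest value that 3 libraries against 3 allow. The 10 genes together made up 85.5% ± 0.858 of the family sum at 10 nM and 72.8% ± 1.39 in vehicle.

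**Figure D4:**
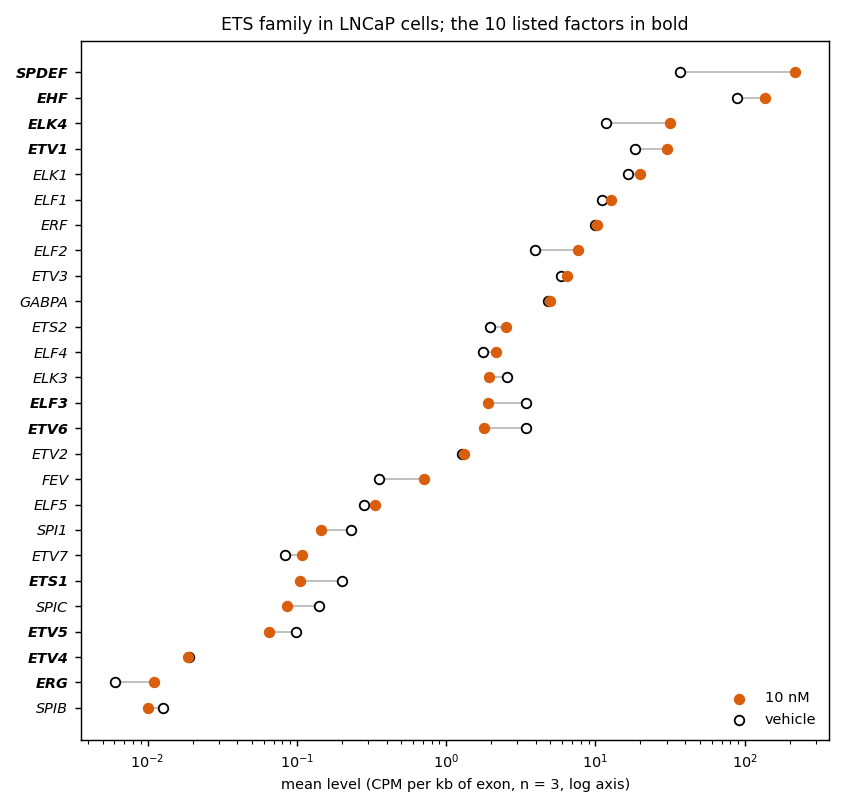
Mean level per kilobase of exon (log axis, n = 3 libraries) of the ETS family genes at 10 nM (filled) and in vehicle (open), with the 10 genes described here in bold and sorted by the 10 nM level; ETV3L, listed at 0 in both groups, is not drawn. SPDEF is at 219 at 10 nM and 37.1 in vehicle, and EHF at 137 and 88.7.

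Of 18 other ETS genes 15 were tested, and at 10 nM against vehicle 7 rose and 1 fell, where 29.3% of all tested genes rose and 28.3% fell. Their median log2 change was 0.19 (all tested genes, -0.01) and their median absolute change 0.292. ELF2 rose by 0.96 ± 0.067 (edgeR adjusted p = 9.8e-10), with 65.5 ± 5.50 CPM at 10 nM and 33.8 ± 2.41 CPM in vehicle, and ELK1, a ternary complex factor like ELK4, by 0.26 ± 0.053 (0.000408), though by 0.05 with library totals alone (0.461). ELK3, the third ternary complex factor, fell by 0.40 ± 0.091 (edgeR adjusted p = 0.00112). ELF1 changed direction with dose: against vehicle it fell by 0.33 ± 0.051 at 0.1 nM (edgeR adjusted p = 4.22e-05) and rose by 0.19 ± 0.05 at 10 nM (0.00315), though scaled by library totals alone the 10 nM change was -0.02. That scaling shifts the median change of all genes at 10 nM by -0.209. ELF1 at 10 nM was 0.53 ± 0.051 higher than at 0.1 nM (edgeR adjusted p = 2.18e-07).

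Of 17 genes whose products work with ETS factors or set their activity, all tested, 6 rose and 4 fell at 10 nM against vehicle, with a median log2 change of 0.05. These 10 of 17 are near the 57.6% called over all tested genes. SRF, the DNA-binding partner of the ternary complex factors, rose by 0.41 ± 0.051 (edgeR adjusted p = 1.62e-06), KAT2B, an acetyltransferase and co-activator, by 0.79 ± 0.075 (6.13e-08) and GABPB1, the partner of GABPA, by 0.59 ± 0.062 (2.29e-07). TRIM25, a ubiquitin ligase reported to act on ERG, fell by 0.65 ± 0.053 (edgeR adjusted p = 7.84e-09). COP1, the ligase of the PEA3 group, was at -0.04 ± 0.069 (edgeR adjusted p = 0.621), and CIC, a repressor of the PEA3 genes, fell by 0.28 ± 0.062 (0.000919), with 81.3 ± 3.80 CPM at 10 nM and 98.6 ± 0.707 CPM in vehicle. The others that fell were DET1, a partner of COP1 in its ligase complex (-0.98 ± 0.25), and GABPB2 (-0.14 ± 0.05). Not all that rose are named here. SPOP, also in this list, averaged 86.8 ± 1.64 CPM at 10 nM and 70.4 ± 1.26 CPM in vehicle.

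Of 15 genes that respond to ERK signalling, which acts on ETS factors, 12 were tested, and 5 rose and 4 fell at 10 nM (29.3% and 28.3% of all tested genes), with a median of 0.075. EGR1, an immediate early gene and target of the ternary complex factors, had 2.60 ± 0.375 CPM at 10 nM and 0.587 ± 0.183 CPM in vehicle, a rise of 2.15 ± 0.26 on the log2 scale (edgeR adjusted p = 1.34e-06). It was not called at 0.1 nM, at -0.49 (edgeR adjusted p = 0.254). The ERK phosphatase gene DUSP4 rose by 1.49 ± 0.12 (edgeR adjusted p = 1.02e-08) and SPRED2, an inhibitor of the pathway, by 0.62 ± 0.059 (5.27e-08). The receptor gene EPHA2 fell by 1.12 ± 0.14 (edgeR adjusted p = 2.83e-06). Other ERK phosphatase genes fell, DUSP6 by 1.66 ± 0.44 (edgeR adjusted p = 0.00329) and DUSP5 by 0.89 ± 0.19 (6e-04). The rest of those called were SPRY4 (1.14 ± 0.45) and SPRED1 (0.48 ± 0.16), inhibitors of the pathway that rose, and PHLDA1 (-0.60 ± 0.22), which fell. SPRY4 was low, with 0.807 to 1.609 CPM at 10 nM and 0.231 to 1.087 CPM in vehicle, so those libraries overlapped.

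Of 16 genes linked to ERG or ETV1 in prostate cancer, 11 were tested, and 3 rose and 6 fell at 10 nM (29.3% and 28.3% of all tested genes), with a median of -0.55. Those that rose were PLA1A, a phospholipase (1.49 ± 0.27), CRISP3, a secreted protein of prostate tumours (1.22 ± 0.26), and HLA-DMB (0.52 ± 0.11). The potassium channel subunit gene KCNS3 fell by 1.50 ± 0.12, LEF1, a transcription factor of the Wnt pathway, by 0.96 ± 0.13, the calcium channel gene CACNA1D by 0.67 ± 0.11, and VIM, the intermediate filament of mesenchymal cells, by 0.63 ± 0.11 (edgeR adjusted p = 4.42e-09, 7.9e-06, 4.59e-05 and 7.21e-05).

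The fusion partners and fusion neighbours of ETS genes showed the largest changes of the lists. Of 12, all tested, 9 rose and none fell at 10 nM (29.3% and 28.3% of all tested genes), with a median log2 change of 1.24. KLK2 rose by 6.59 ± 0.11, NDRG1 by 5.37 ± 0.12, TMPRSS2 by 4.33 ± 0.23, SLC45A3 by 3.97 ± 0.086 and ACSL3 by 3.51 ± 0.067, the largest adjusted p among them being 2.25e-11 in edgeR's test. The 3 not called were MIPOL1, FOXA1 and HNRNPA2B1. Many of these genes are known to respond to androgen, so their direction is no independent observation.

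**Figure D5:**
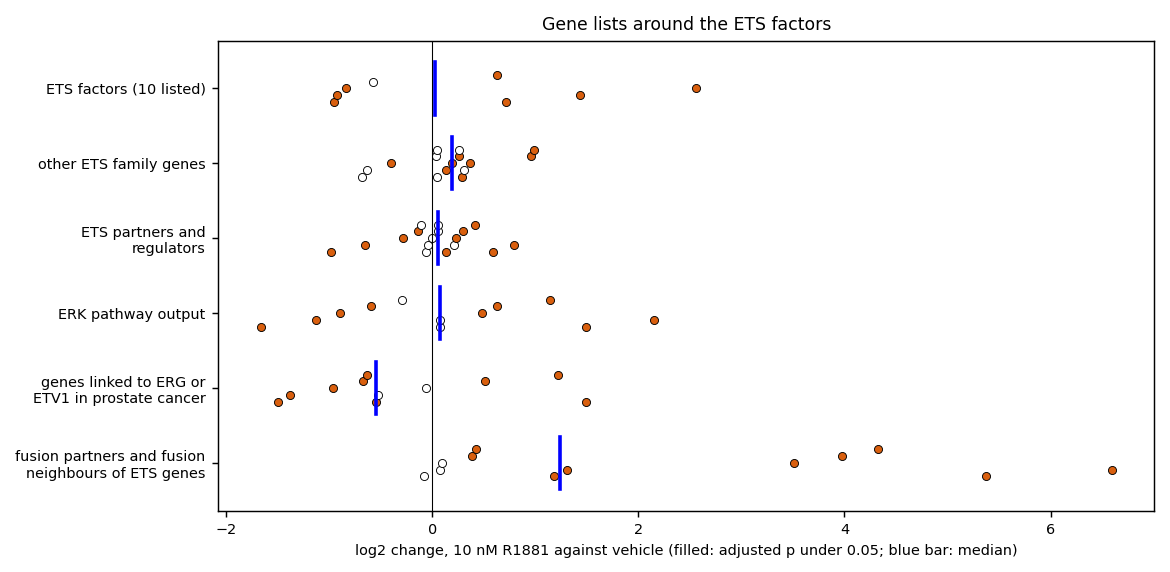
Log2 change at 10 nM R1881 against vehicle (horizontal axis) of each tested gene of 6 lists (rows); filled points passed the test, open points did not, and blue bars are the medians. The fusion partners lie furthest to the right, with a median of 1.24, and the other lists have medians between -0.55 and 0.19.

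Over the 15 libraries, the tested genes with levels of at least 5 CPM in a group that followed SPDEF most closely on the log2 CPM scale were PLPP6, CADPS2 and EDEM3, with Pearson r of 0.999, 0.998 and 0.998 among 11218 genes compared. For ELK4 they were NUP58, ADAM9 and SLC39A10 (0.997, 0.994 and 0.992), and for ETV1 they were CAPZA1, ZNF731P and LMLN (0.973, 0.969 and 0.968). These values describe a shared order over the same libraries and doses, in which many genes rise with R1881.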

How the data were processed

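Stranded messenger RNA libraries were sequenced, per the labels' protocols. The deposited table holds raw gene counts made by the authors. Per the submitters' processing notes, Trimmomatic 0.39, STAR 2.7.8a and DESeq2 1.36.0 were used on GRCh38. How reads were assigned to genes, with which annotation and strand option, is not given in the sources used here. Groups came from the titles and replicate numbers from the column names. The series has 30 samples; 15 per-sample columns of the other cell line matched no label and were not analysed here.

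Counts were tested in edgeR 4.0.16 (R 4.3.3) with TMM scaling, the default filter on low counts by group, quasi-likelihood fits with 1 mean per group on all 15 libraries, and Benjamini-Hochberg adjustment. Read sums of 30666460 to 61199483 per library set the precision, and counting intervals are exact at 95%. Replicate libraries of a group differed by more than sampling noise (chi-square per degree of freedom 3.57 to 48.8). Positions and exon lengths are those of GENCODE 29, matched without ID version (18364 of 37843 IDs have the same version), and symbols were found for 28455 IDs. The test was checked on simulated data.

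The members, gene lists and rules were chosen with earlier results of these data known. All 10 members were named, with up to 4 genes of each list with the smallest p among those called at 10 nM, all members of counts of 5 or fewer where given, neighbours of ELK4, ERG and ETV1, and the 3 genes most like SPDEF, ELK4 and ETV1. COP1, SPOP and the genes overlapping members were added after their values were seen. Alternatives were RLE factors, library totals, DESeq2 1.42.0, no or a stricter filter, a replicate block, only the libraries compared, leaving out the libraries numbered 3, and leaving out each library. Family shares without length scaling were added after the data were seen.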

Additional observations from a re-analysis of the deposited data

How the results depend on the processing

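Over the 8 tested genes in 5 comparisons, 853 of 914 recomputed values kept their direction and their side of the threshold, 40 lost a call, 20 gained one and 1 turned sign. At 0.03 nM against vehicle 2 genes were called in place of 4 when only the libraries compared were fitted, and 1 to 5 when single libraries were left out. Counts with single libraries left out ran from 5 to 7 at 0.06 nM, stayed at 7 at 0.1 and 10 nM, and ran from 6 to 7 for 10 nM against 0.06 nM. Over all genes such counts ran from 4493 to 5860 at 0.06 nM and from 6771 to 7885 at 0.1 nM. At 10 nM they ran from 9600 to 10807, and for 10 against 0.06 nM from 7207 to 8475. Both low ends at 0.06 nM came without replicate 2 of that dose. Over all genes at 0.03 nM, 1588 were called, against 1010 with only the libraries compared, 979 without vehicle replicate 4 and 3195 with the replicate block. Values that turned sign were never called in either setting, except ELF1. With library totals alone they were ETV1 at 0.06 against 0.03 nM (-0.01007), EHF at 10 against 0.06 nM (-0.038), ELF1 at 10 nM against vehicle (-0.01687) and FOXA1 (-0.1299, adjusted p = 0.0522). Without the 5 libraries numbered 3, ETV1 at 0.06 against 0.03 nM was -0.01072. With single libraries left out, 0.06 against 0.03 nM ran from -0.05798 to 0.07215 for ETV1, from -0.8211 to 0.06964 for ETV5 and from -0.07204 to 0.04852 for ETS1, and EHF at 10 against 0.1 nM from -0.0863 to 0.01817. At 0.03 nM the calls of EHF, ELF3 and ETV6 were lost in 10, 12 and 6 of 15 such fits, and that of ETV1 at 0.06 nM in 4. The cause was not tested. SPDEF's share of the family at 10 nM was 20.4% without length scaling (6.44% in vehicle), and 43.8% to 44.8% with a 10 nM library left out. Same-numbered libraries deviated together in 23 of 30 pairs (r over 0.1, range -0.0138 to 0.315), and 15 of 15 libraries correlated best with their own number. The column names also run set by set, with each replicate number holding a library of every dose. The labels name no batch or pairing, and the main fit holds no replicate block. With the replicate block 6 genes were called at 0.03 nM, ETV1 (adjusted p = 0.00492) and ELK4 (0.00127) being added, and 7 at 10 against 0.06 nM, with EHF (0.015). The share of all genes called with the block at 10 against 0.06 nM is not given here. ERG and ETV4 had no adjusted p under 0.05 without the filter. Depth limits ETV5, ERG and ETV4, at no more than 27 counts a library.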
